A study of Mus musculus with 6 samples.

Results

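The subunits and inhibitors of NF-κB were followed in mouse T cells grown together with ovarian cancer cells. They were chosen by name: 5 subunit genes (Rel, Rela, Relb, Nfkb1 and Nfkb2), 4 genes of the IκB family (Nfkbia, Nfkbib, Nfkbie and Nfkbiz) and Tnfaip3. All 10 were found among the 54532 genes of the table, and all 10 had at least 0.5 FPKM on average and were tested. FPKM is the number of fragments scaled to the length of the gene and to the depth of the library, so that levels of different genes can be compared. T cells came from spleens of young adult C57BL/6 mice, were taken with a pan-T-cell isolation kit, kept in IL-2 and activated with beads against CD3 and CD28. The tumour partner was ID8, a single mouse ovarian surface epithelial cell line that grows in C57BL/6 mice. In the cisplatin group (3 libraries) ID8 cells had been treated with 40 µM cisplatin before the co-culture, and in the control group (3 libraries) with PBS, so both groups share the activation, the IL-2 and the tumour cells. Nothing in the labels says that the libraries of a group came from separate mice or cultures, so the p-values measure the spread between these libraries, which may be technical.

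NF-κB factors are dimers of Rel-family proteins. In resting cells IκB proteins hold them in the cytoplasm, and when the IκB kinase (IKK) marks an IκB for destruction the dimer enters the nucleus. RelA, c-Rel (from Rel) and RelB carry activation domains, whereas Nfkb1 and Nfkb2 encode the long precursors p105 and p100 that are shortened to p50 and p52. Signals from the T-cell receptor and CD28 use this route, c-Rel is needed for much of the activation programme of T cells, and several inhibitors are themselves NF-κB targets and so act as feedback.

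Because some of these genes are known targets of NF-κB, the letters of the NF-κB consensus were looked for in the promoters. RefSeq windows (build GRCm38.p6) running from 250 bases before a start site to 50 bases after it were given for 7 of the 10 genes. These were Rel, Rela, Nfkb2, Nfkbia, Nfkbib, Nfkbie and Tnfaip3. Nfkb2 had 3 such start sites and Tnfaip3 had 2. The NF-κB consensus is 10 bases long. It was searched on both strands, and overlapping matches were counted as 1 stretch. A match was found for 5 of the 7 genes (Rel, Nfkb2, Nfkbia, Nfkbie and Tnfaip3), against 9.55% of the 27025 mouse genes with a window. Nfkb2 and Tnfaip3 held 2 separate stretches in a window, as 0.599% of all genes did. When 1 mismatch was allowed, all 7 genes matched, but so did 63.2% of all 32851 windows. The letters TATAAA, searched on both strands of the upstream bases, stood in 1 of the 7 genes (Tnfaip3) and in 14.3% of all genes. A match is a run of letters and not a measured binding site. Upstream bases are given below for the feedback inhibitors Nfkbia, Nfkbie and Tnfaip3, for Rel as a subunit with a large change, and for Rela as the subunit that moved the other way and had no match. Nfkbib had no match either but was higher (log2 fold change 0.32), and its bases are not printed. For Nfkb2 the matches of its first window are given with up to 8 bases on each side. Sequences run 5′ to 3′ on the strand of the gene, leave out annotated untranslated bases except for Nfkb2, and mark the consensus matches in capitals. They lie at chr11:23770971-23771219 (minus strand) for Rel, chr12:55492648-55492897 (minus strand) for Nfkbia, chr17:45555450-45555699 (plus strand) for Nfkbie, chr10:19015411-19015547 (minus strand) for Tnfaip3, chr19:5637291-5637482 (plus strand) for Rela, and chr19:46304690-46304716 and chr19:46304718-46304736 (plus strand) for Nfkb2.
Rel: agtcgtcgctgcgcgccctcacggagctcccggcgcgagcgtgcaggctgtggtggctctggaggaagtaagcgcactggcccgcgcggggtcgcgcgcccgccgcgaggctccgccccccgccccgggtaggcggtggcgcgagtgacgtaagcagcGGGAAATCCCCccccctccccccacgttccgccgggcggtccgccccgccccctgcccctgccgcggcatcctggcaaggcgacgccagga
Nfkbia: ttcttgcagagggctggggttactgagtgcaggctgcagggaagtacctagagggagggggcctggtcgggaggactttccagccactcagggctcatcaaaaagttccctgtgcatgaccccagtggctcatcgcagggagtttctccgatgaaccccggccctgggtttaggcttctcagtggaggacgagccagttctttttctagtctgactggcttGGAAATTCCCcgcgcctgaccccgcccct
Nfkbie: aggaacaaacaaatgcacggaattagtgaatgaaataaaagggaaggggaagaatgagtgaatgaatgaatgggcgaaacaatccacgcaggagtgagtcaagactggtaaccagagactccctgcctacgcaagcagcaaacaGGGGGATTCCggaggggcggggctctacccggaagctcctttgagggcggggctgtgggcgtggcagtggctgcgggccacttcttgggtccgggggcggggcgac
Tnfaip3: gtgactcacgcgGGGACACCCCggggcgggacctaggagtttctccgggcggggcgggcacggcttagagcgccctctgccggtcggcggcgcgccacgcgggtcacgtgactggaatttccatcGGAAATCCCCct
Rela: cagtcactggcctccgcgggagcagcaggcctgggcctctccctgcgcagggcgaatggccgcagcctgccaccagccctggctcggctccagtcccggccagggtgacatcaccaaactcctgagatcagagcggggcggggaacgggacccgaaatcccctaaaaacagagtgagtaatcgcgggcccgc
Nfkb2, first match: atcgtcacGGGAATTCCCCccctcggg
Nfkb2, second match: ggccgaaaGGGGCTTTCCc

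Counted in bases from the RefSeq start site, the match of Rel began at -92, that of Nfkbia at -29 and that of Nfkbie at -106. Those of Tnfaip3 began at -125 and -12 of its first window. The RefSeq start of that window lies 247 bases downstream of the gene start in the table, so both matches lie within the gene as the table places it. In its first window Nfkb2 had matches at -39 and -11. Its second window held a pair at -236 and 11, and the match of the remaining window, at -225, is the same stretch as the latter.

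Rebuilt from the FPKM values, 30606569 to 32169496 reads lay on genes per library. The total by which the deposited FPKM had been divided exceeded these reads in cisplatin (1.03 to 1.05 times) and fell short of them in control (0.976 to 0.982 times), which lowers every cisplatin value a little relative to control. Markers were called higher or lower by the limma test described below, which called 27.5% of all genes tested higher and 29.0% lower. Among T-cell markers, 23 of 24 (all but Themis) were higher in cisplatin (median log2 fold change 0.58). The summed level of the T-cell markers was 3146 to 3219 FPKM against 2003 to 2132 in control. Of the 23 ID8 markers tested, 22 (all but Thbs1) were lower (median -2.30), and their sum was 310.8 to 319.4 against 1848 to 1937 FPKM. All 11 B-cell markers were higher (sum 3654 to 3726 against 1711 to 1799 FPKM), led by Ighm, and 7 of 10 tested myeloid markers were higher and 2 lower (sum 206.6 to 235.3 against 150.2 to 156.8 FPKM). The libraries labelled T cells thus held T-cell genes throughout, with transcripts of the other cell types beside them. No marker was at 0 in every library, although the neutrophil markers S100a8 and S100a9 averaged under 0.5 FPKM and were not tested. These are bulk libraries: fewer cells of a type and less RNA per cell cannot be told apart, and the part of these shifts in the results that follow was not tested.

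On the deposited scale, most subunits and inhibitors were higher in the libraries labelled T cells from co-culture with cisplatin-treated ID8 cells. By limma with Benjamini-Hochberg adjustment over all 15874 genes tested, 8 of the 10 were higher (Rel, Relb, Nfkb1, Nfkb2, Nfkbia, Nfkbib, Nfkbie and Tnfaip3), 1 was lower (Rela), and Nfkbiz did not pass the threshold of 0.05. Over all genes tested, 27.5% were called higher and 29.0% lower by this rule. Among the 8422 genes that averaged at least 5 FPKM, as all 10 do, 36.4% were higher and 33.6% lower. The changes were modest. None of the 10 reached 2-fold, a size that 16.9% of all genes tested reached with an adjusted p under 0.05. The 3 cisplatin and 3 control values did not overlap for any of the 10 genes. They lay higher in cisplatin for 8 and lower for 2, whereas 31.9% of all genes tested lay apart in the higher direction and 32.3% in the lower. The median log2 fold change was 0.33 over the 10 genes and 0.03 over all genes tested. Only Rel and Relb rose by more than the median T-cell marker. When each library was instead centred on its T-cell markers, none of the 10 was called higher. Relb at 0.13 and Rel at 0.08 kept a positive log2 fold change. The 6 genes called lower were Rela, Nfkbiz, Nfkb1, Nfkb2, Nfkbia and Tnfaip3. The signs of Nfkb1, Nfkb2, Nfkbia, Nfkbib, Nfkbie and Tnfaip3 turned, but Nfkbib and Nfkbie were not called (limma adjusted p = 0.067 and 0.33).

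**Figure D1:**
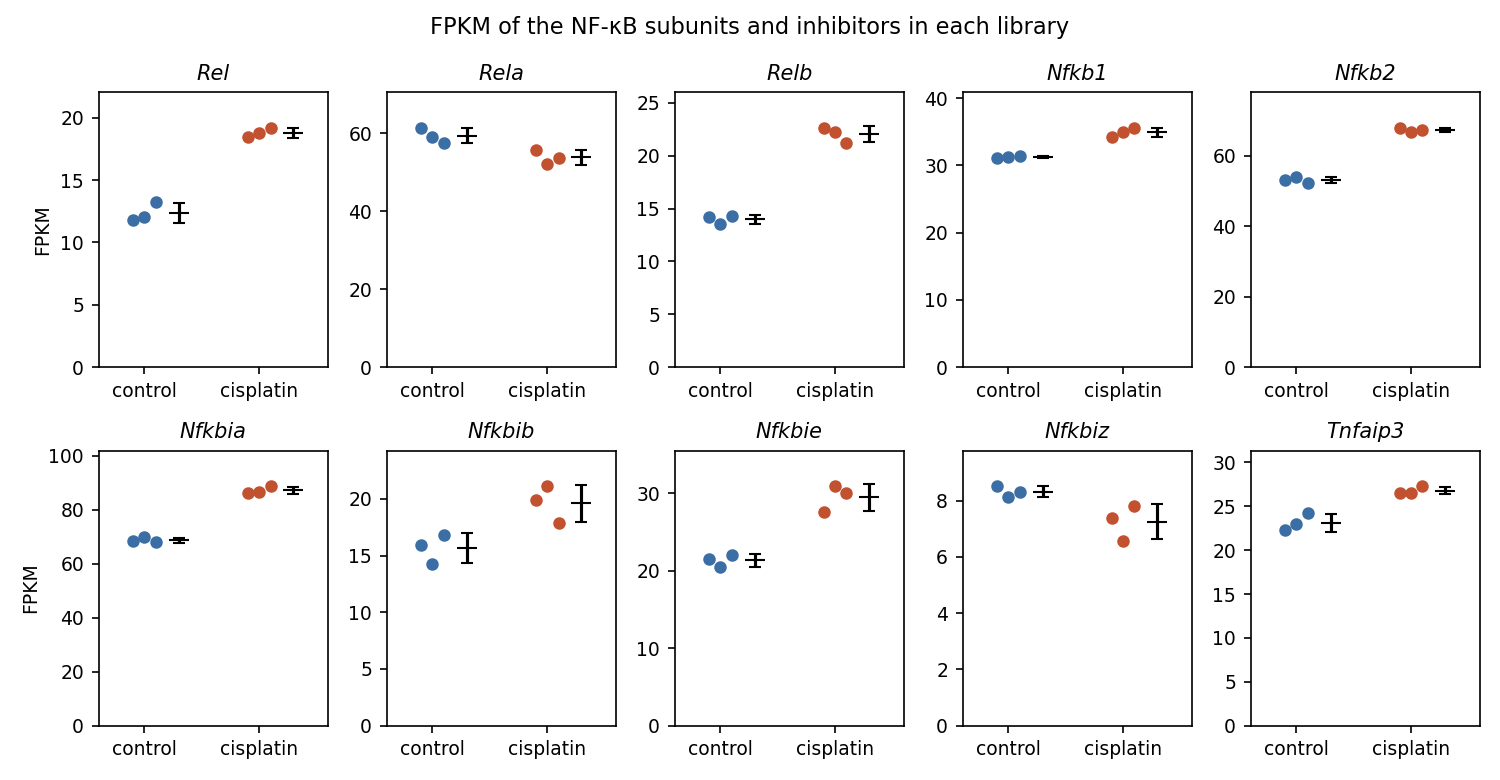
FPKM (vertical axis, from 0) of the 10 genes in each control (blue) and cisplatin (orange) library, with 1 point per library and the group mean ± SD (n = 3) beside the points. On the deposited scale the points of the groups do not overlap for any gene. Cisplatin lies above control for 8 genes and below it for Rela and Nfkbiz. The sign of the log2 fold change turns for 6 of the 8 when libraries are centred on T-cell markers.

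Of the subunits with an activation domain, Rel and Relb were higher and Rela slightly lower. Rel encodes c-Rel, the subunit most restricted to lymphoid and myeloid cells. It is ENSMUSG00000020275 at 23736847 to 23770970 on chromosome 11 (minus strand). Its level was 18.4, 18.8 and 19.2 FPKM in the cisplatin libraries and 11.8, 12.0 and 13.3 FPKM in control. The lowest cisplatin library lay well above the highest control library. The log2 fold change was 0.60 (SE 0.05, 95% interval 0.47 to 0.73, limma adjusted p = 0.000104), or 1.52-fold. Of all genes tested, 86.4% had a lower log2 fold change. Rel was counted from at least 2639 reads in each library, which gives a counting error of 1.95% at most.

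Relb encodes the subunit that pairs with p52 in the alternative pathway. It is ENSMUSG00000002983 at 19606217 to 19629438 on chromosome 7 (minus strand). The cisplatin libraries had 22.6, 22.3 and 21.2 FPKM and the control libraries 14.2, 13.5 and 14.3 FPKM. The libraries of a group lay close together and far from those of the other group. This was the largest change of the 10 genes, with a log2 fold change of 0.65 (SE 0.04, 95% interval 0.55 to 0.75, limma adjusted p = 2.38e-05), or 1.57-fold. The ratio of Rel to Relb overlapped between the groups. Bcl3, an IκB-like co-factor of p50 and p52 that lies 179023 bases from Relb, had a log2 fold change of 0.02 (limma adjusted p = 0.55).

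Rela encodes the main activating subunit in most cells. It is ENSMUSG00000024927 at 5637483 to 5648130 on chromosome 19 (plus strand). Its level was 55.8, 52.0 and 53.6 FPKM in cisplatin and 61.4, 59.1 and 57.6 FPKM in control. The groups did not overlap, but the highest cisplatin library came close to the lowest control library. Its log2 fold change was -0.14 (SE 0.04, 95% interval -0.24 to -0.05, limma adjusted p = 0.0209). This call is the weakest of the 9. It was lost with voom on rebuilt reads (log2 fold change -0.06, adjusted p = 0.26), with FPKM rescaled by the reads on genes (-0.06, adjusted p = 0.3), with quantile normalization (-0.12, adjusted p = 0.066), without the trend in limma's variance prior (adjusted p = 0.062), and when cisplatin library 2 or 3 or control library 1 or 2 was left out (log2 fold change -0.12 to -0.14, adjusted p = 0.052 to 0.067). Centred on T-cell markers it was -0.66 (adjusted p = 3.23e-05).

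Both precursor genes were higher. Nfkb1 encodes p105, the source of p50, and Nfkb2 encodes p100, which both yields p52 and restrains RelB. Nfkb1 (ENSMUSG00000028163, 135584655 to 135691547 on chromosome 3, minus strand) measured 34.2, 35.0 and 35.6 FPKM in cisplatin and 31.1, 31.3 and 31.4 FPKM in control. The control libraries were almost level, and every cisplatin library stood a little above them. This gave Nfkb1 a log2 fold change of 0.16 (SE 0.03, 95% interval 0.09 to 0.23, limma adjusted p = 0.00356). With voom on rebuilt reads, or with FPKM rescaled by the reads on genes, it was 0.24. Nfkb1 is the longest and most deeply counted of the 10 genes, with 11252 to 13976 reads per library. Nfkb2 (ENSMUSG00000025225, 46304737 to 46312090 on chromosome 19, plus strand) measured 67.9, 66.6 and 67.4 FPKM in cisplatin and 53.1, 54.0 and 52.2 FPKM in control. Spread within each group was small beside the gap between them. The log2 fold change was 0.34 (SE 0.03, 95% interval 0.28 to 0.41, limma adjusted p = 6.21e-05), or 1.27-fold. Nfkb2 overlaps Psd on the other strand, which averaged 7.51 FPKM in cisplatin and 3.09 in control. Since the sources used here do not give the strand setting of the counting, reads of the overlap cannot be told apart. Nfkb1 overlaps Gm43430, a gene model at under 1 FPKM.

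The 3 classical IκB genes were all higher. Nfkbia encodes IκBα, which NF-κB induces within a short time of activation and which ends the response by taking the dimers out of the nucleus. It is ENSMUSG00000021025 at 55489410 to 55492647 on chromosome 12 (minus strand). It had the highest level of the 10 genes, with 86.0, 86.6 and 88.6 FPKM in cisplatin and 68.2, 69.7 and 68.1 FPKM in control. The highest control library lay far below the lowest cisplatin library. The log2 fold change was 0.34 (SE 0.03, 95% interval 0.28 to 0.41, limma adjusted p = 6.01e-05), or 1.27-fold, as for Nfkb2.

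Nfkbie encodes IκBε, an inhibitor that acts on dimers of RelA and c-Rel and is also induced by NF-κB. It is ENSMUSG00000023947 at 45555703 to 45563169 on chromosome 17 (plus strand). Its level was 27.6, 30.9 and 30.0 FPKM in cisplatin and 21.6, 20.4 and 22.0 FPKM in control. All cisplatin libraries lay above all control libraries. With a log2 fold change of 0.46 (SE 0.05, 95% interval 0.33 to 0.59, limma adjusted p = 0.00038), or 1.38-fold, it had the largest change of the inhibitors. Nfkbib encodes IκBβ, which is not a strong feedback target. It is ENSMUSG00000030595 at 28758251 to 28767512 on chromosome 7 (minus strand), and measured 19.9, 21.1 and 17.9 FPKM in cisplatin and 15.9, 14.3 and 16.8 FPKM in control. The lowest cisplatin library was only a little above the highest control library. Nfkbib had a log2 fold change of 0.32 with the widest interval of the 10 genes (SE 0.08, 95% interval 0.12 to 0.52, limma adjusted p = 0.0149). Its lowest library held 928 reads, the fewest of any of the 10 genes. Nfkbib overlaps Sirt2 on the other strand, which averaged 22.6 FPKM in cisplatin and 19.4 in control, so its value is uncertain.

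Tnfaip3 was higher, whereas Nfkbiz lay lower without passing the threshold. Nfkbiz encodes IκBζ, a nuclear protein that works with p50 at promoters rather than holding dimers back. It is ENSMUSG00000035356 at 55811375 to 55838899 on chromosome 16 (minus strand). It had the lowest level of the 10, with 7.37, 6.57 and 7.80 FPKM in cisplatin and 8.50, 8.14 and 8.31 FPKM in control. Every cisplatin library lay below every control library, with more spread in cisplatin. The log2 fold change of -0.20 (SE 0.07, 95% interval -0.37 to -0.03) did not pass the threshold (limma adjusted p = 0.0501). Its limma adjusted p was 0.049 with a pseudocount of 1 FPKM, 0.039 among genes of at least 5 FPKM and 0.027 without cisplatin library 3. Centred on T-cell markers the log2 fold change was -0.72 (adjusted p = 0.000149), whereas it was -0.065 with quantile normalization (adjusted p = 0.455), -0.12 with voom or with rescaling by reads on genes (adjusted p = 0.165 and 0.217), and -0.13 without cisplatin library 2 (adjusted p = 0.107). Tnfaip3 encodes A20, a ubiquitin-editing enzyme that shuts off signalling upstream of IKK. It is ENSMUSG00000019850 at 19000910 to 19015657 on chromosome 10 (minus strand). Its level was 26.5, 26.5 and 27.3 FPKM in cisplatin and 22.3, 22.9 and 24.3 FPKM in control. The cisplatin libraries were tight and lay above all control libraries. Tnfaip3 rose by a log2 fold change of 0.21 (SE 0.04, 95% interval 0.11 to 0.31, limma adjusted p = 0.00452), or 1.16-fold.

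**Figure D2:**
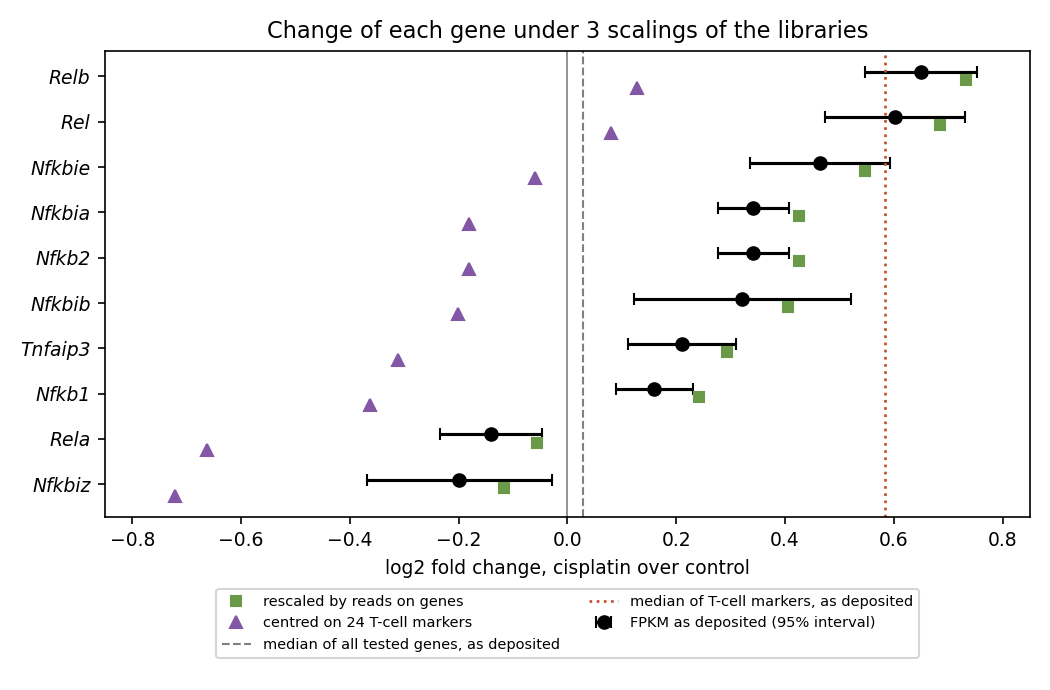
Log2 fold change (horizontal axis, cisplatin over control) of the 10 genes from FPKM as deposited (black, with 95% intervals), rescaled by reads on genes (green) and centred on 24 T-cell markers (purple). On the deposited scale 8 genes lie above 0 and Rela and Nfkbiz below it; centred on T-cell markers only Rel and Relb stay above 0.

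The order of the genes by level was nearly kept. In both groups Nfkbia was highest and Nfkbiz lowest. In control Rela came second, followed by Nfkb2, Nfkb1, Tnfaip3, Nfkbie, Nfkbib, Relb and Rel. In cisplatin Nfkb2 stood above Rela, Nfkbie above Tnfaip3 and Relb above Nfkbib. Neighbours in the order had values that did not overlap, except Nfkbib and Relb in control and Nfkbib and Rel in cisplatin.

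The balance between the subunits does not move when a whole library is scaled up or down. It can still move with the mix of cells in a library, whose part in the shares and ratios below was not tested. The shares below are given without a test. Rela made up 28.1%, 26.7% and 27.2% of the summed FPKM of the 5 subunits in cisplatin and 35.8%, 34.8% and 34.1% in control. Its share was lower in every cisplatin library. Relb took 11.2% ± 0.38 (SD, n = 3) in cisplatin and 8.23% ± 0.26 in control, and Rel 9.55% ± 0.26 and 7.27% ± 0.53. The share of Nfkb2 was 34.2% ± 0.059 in cisplatin and 31.2% ± 0.48 in control. Nfkb2 was thus the largest subunit transcript in cisplatin and Rela in control. Nfkb1 took 17.7% ± 0.49 and 18.4% ± 0.24, with the groups apart by a narrow margin.

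Within a library, Rel stood at 0.351 of the level of Rela in cisplatin and at 0.209 in control, a difference of 0.74 on the log2 scale. For Relb to Rela the ratios were 0.41 and 0.237 (log2 difference 0.79), and for Nfkb1 to Rela 0.649 and 0.527 (0.30). All 3 ratios were higher in every cisplatin library than in any control library. Among the inhibitors, Nfkbia stood at 1.62 times the level of Rela in cisplatin and 1.16 times in control (log2 difference 0.48). The ratio of Nfkb2 to Nfkb1 was 1.93 and 1.70 (0.18). Nfkbiz stood at 0.084 of Nfkbia in cisplatin and at 0.122 in control (log2 difference -0.54), and Tnfaip3 to Nfkbia was 0.308 in cisplatin and 0.338 in control (-0.13). These 7 of the 8 ratios did not overlap between groups, and neither did 34 of all 45 ratios that the 10 genes can form. The 45 ratios share genes, and the share over all pairs of genes was not computed, so these counts have no background. Of single genes tested, 31.9% already lay apart in the higher direction and 32.3% in the lower. Each of the 7 ratios came with p = 0.1 in a two-sided exact permutation test (adjusted over the 8 ratios, 0.114), the smallest p that 3 against 3 libraries allow, so no ratio can pass 0.05. The remaining ratio, Nfkbie to Nfkbia, overlapped (0.339 and 0.311, exact permutation p = 0.2).

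**Figure D3:**
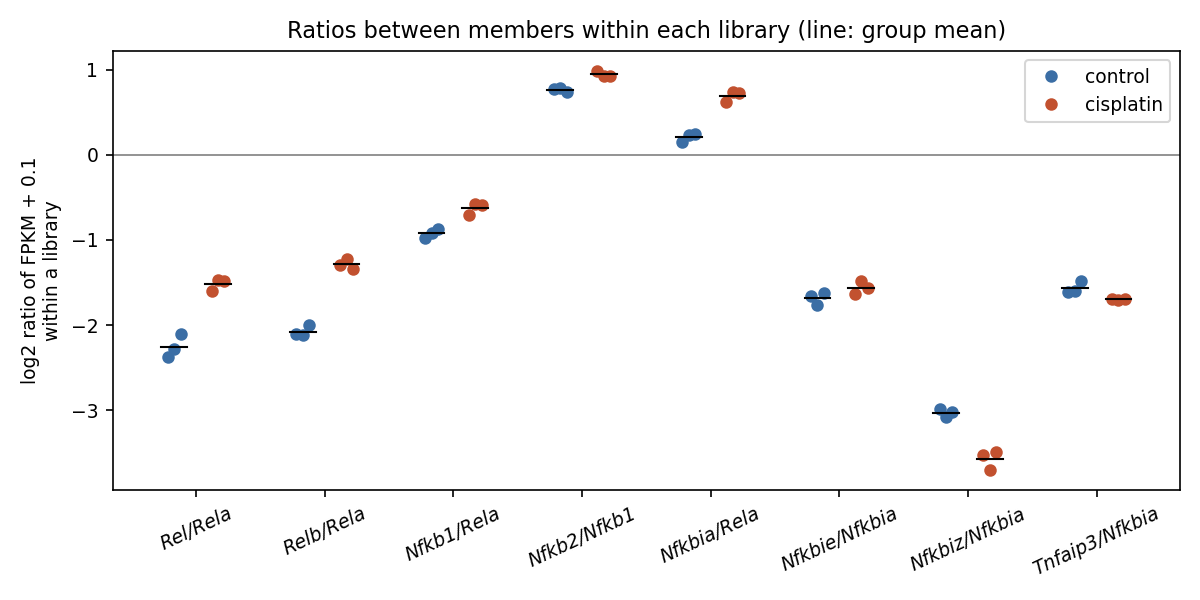
Log2 ratio of FPKM + 0.1 between a pair of genes within each library (vertical axis) for 8 ratios, with control in blue, cisplatin in orange, 1 point per library and a line at the group mean. Ratios of Rel, Relb, Nfkb1 and Nfkbia to Rela lie higher in cisplatin, those of Nfkbiz and Tnfaip3 to Nfkbia lie lower, and that of Nfkbie to Nfkbia overlaps.

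Within the 4 IκB-family genes, Nfkbia held 60.7% ± 0.93 of the summed FPKM in cisplatin and 60.3% ± 1.5 in control, and Nfkbib 13.7% ± 1.1 and 13.8% ± 0.98. Neither share was apart between the groups. The share of Nfkbie lay higher in every cisplatin library (20.5% ± 0.88 against 18.7% ± 0.50) and that of Nfkbiz lower (5.06% ± 0.47 against 7.30% ± 0.13). These shares were not tested.

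The other genes of the pathway did not move one way, and neither did genes at large. Over all genes tested, 27.5% were called higher and 29.0% lower, and the counts of the lists below stand beside these shares. Of 49 genes in 6 lists, 48 were tested, 21 were higher, 15 were lower and 12 did not pass, with a median log2 fold change of 0.12 (0.24 with quantile normalization, 0.20 with rescaling by reads on genes and 0.19 with voom). All values below are on the deposited scale. With libraries centred on T-cell markers 3 were higher and 32 lower. Of the other IκB-like genes, Nfkbid, whose product IκBNS acts in the nucleus and is induced in stimulated lymphocytes, was higher at 9.69 ± 0.55 against 5.24 ± 0.15 FPKM (SD, n = 3, log2 fold change 0.87, limma adjusted p = 2.63e-05). The other two, Bcl3 and Nfkbil1, did not pass.

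The 7 genes of the IκB kinases and the IκB ligase had 3 higher, 3 lower and 1 that did not pass, and no kinase was called lower. Ikbke, an IKK-related kinase, was higher at 25.8 ± 0.35 against 14.6 ± 0.068 FPKM (log2 fold change 0.82). Ikbkb, the catalytic kinase of the classical pathway, and Chuk, which encodes IKKα, were higher with log2 fold changes of 0.50 and 0.42. Ikbkg, which encodes the scaffold NEMO, was lower at 12.1 ± 0.42 against 21.7 ± 1.4 FPKM (-0.83). Btrc and Fbxw11, the receptors of the ligase that marks phosphorylated IκB, were lower as well (-0.73 and -0.53), and Tbk1 did not pass (0.02). In the antigen receptor branch 4 of 8 genes were higher and 1 lower. Malt1, a protease of antigen receptor signalling, measured 26.1 ± 0.92 against 16.8 ± 0.74 FPKM (0.64). Prkcq, the protein kinase C of the T-cell synapse, measured 36.0 ± 0.39 against 24.4 ± 0.80 FPKM (0.56). Tab1, an adaptor of the kinase TAK1, was lower (-0.45).

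The alternative branch had 5 of 8 tested genes higher and 3 lower. The receptor genes Cd40 (1.10) and Tnfrsf13c (0.46), which are typical of B cells, and Traf3 (0.43), which keeps the kinase NIK low, were higher. The level of Cd40 was low, at 2.47 ± 0.42 against 1.095 ± 0.19 FPKM. Ltbr, the lymphotoxin receptor of stromal and epithelial cells, was lower at 5.97 ± 0.51 against 18.1 ± 0.35 FPKM (-1.58). Map3k14, which encodes NIK, was lower by less (-0.21). Of the 11 TNF, IL-1 and Toll-like receptor genes 4 were higher and 3 lower. Traf1, a signalling adaptor and NF-κB target, measured 35.9 ± 0.59 against 23.7 ± 1.1 FPKM (0.60), and Traf5, another adaptor, 6.55 ± 0.27 against 4.33 ± 0.23 FPKM (0.59). The TNF receptor gene Tnfrsf1a measured 19.1 ± 1.1 against 44.7 ± 1.8 FPKM (-1.22), and that of the other TNF receptor, Tnfrsf1b, was lower by less (-0.28). Of 11 ubiquitin regulators 4 were higher, led by Otulin (0.55) and Rbck1 (0.50), which act on linear ubiquitin chains, and 5 were lower, led by Tnip3 (-2.33), an A20-binding protein, and Rnf11 (-1.24). The ID8 markers fell alongside these lower genes, from 1848 to 1937 FPKM in control to 310.8 to 319.4 FPKM in cisplatin, and the B-cell markers were higher alongside Cd40 and Tnfrsf13c. Their part in these values was not tested.

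Known target genes of NF-κB were called in both directions too, as were all genes tested (27.5% higher and 29.0% lower). Of 37 listed, 33 were tested. Of these 18 were higher, 11 were lower and 4 did not pass, with a median log2 fold change of 0.38, which was 0.12 when only genes of at least 5 FPKM were taken. Centred on T-cell markers, 6 were higher and 14 lower. Irf4, a transcription factor of activated lymphocytes, measured 30.9 ± 0.55 against 15.6 ± 0.72 FPKM (0.98, limma adjusted p = 3.79e-06). The chemokine gene Ccl3 was higher at a low and variable level, with 6.03 ± 2.0 against 1.40 ± 0.23 FPKM (1.98, limma adjusted p = 0.000858). The early response gene Ier3 was lower at 30.4 ± 2.1 against 216.4 ± 6.5 FPKM (-2.83), as was Nos2, the inducible nitric oxide synthase, at 4.67 ± 0.29 against 32.4 ± 0.49 FPKM (-2.77). As another family of signal-dependent factors, 11 genes of STAT factors and JAK kinases had 6 higher, 3 lower and a median log2 fold change of 0.14. Stat5a (0.61) and Tyk2 (0.40) were among those higher, Stat2 (-0.30) and Jak3 (-0.22) among those lower. The difference between that family and the NF-κB genes was not tested.

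**Figure D4:**
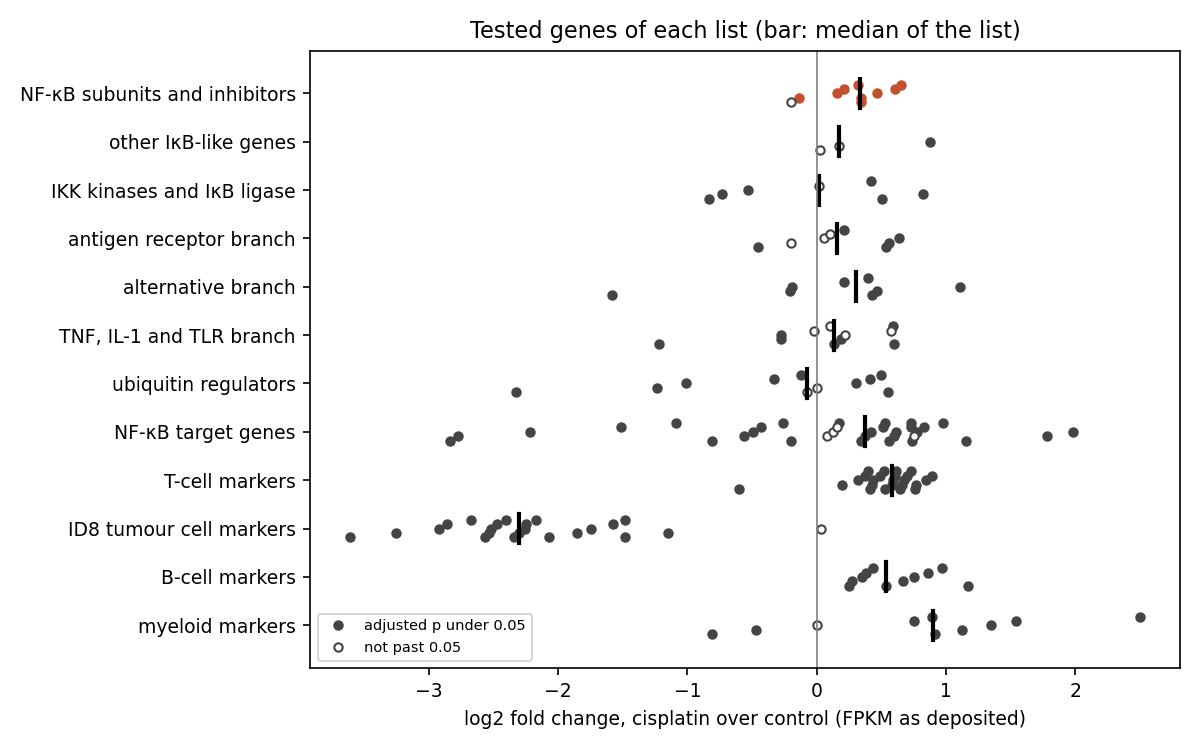
Log2 fold change on the deposited scale (horizontal axis, cisplatin over control) of the tested genes of each list (vertical axis), with 1 point per gene, filled where the limma adjusted p is under 0.05, and a bar at the median of the list. The NF-κB subunits and inhibitors (orange) have a median of 0.33, the T-cell markers 0.58 and the ID8 markers -2.30; centred on T-cell markers, the median of the NF-κB genes is -0.19.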

How the data were processed

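RNA of 6 libraries (3 cisplatin, 3 control) was sequenced. The FPKM values were deposited by the authors, 1 column per library. The submitters' processing notes name fastp, HISAT2 2.0.5, featureCounts 1.5.0-p3 and the mm10 build, while the study's methods name LifeScope for alignment and counting. The strand setting is not given in the sources used here. Coordinates are those of the table (GRCm38), equal to GENCODE M21 for 53462 of 54372 shared gene IDs.

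Whole reads were rebuilt from FPKM and gene length (100% whole within 0.1 read), giving 30606569 to 32169496 reads on genes per library. Counting errors cover counting only. No column was left without a sample (0 columns). Any 2 libraries of a group differed by more than counting noise (chi-square of 5.11 to 5.99 per degree of freedom), so no pair was taken for 1 library deposited again.

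Genes averaging at least 0.5 FPKM were tested with limma 3.58.1 (R 4.3.3, trended prior) on log2(FPKM + 0.1), with Benjamini-Hochberg adjustment over all 15874 genes and a threshold of 0.05, with or without a 2-fold change. Fold changes are on this log2(FPKM + 0.1) scale, which understates those of low genes. Count models were not the main test because the unit is FPKM; voom on the rebuilt reads was an alternative. The scripts were tested on simulated data. Ratios within a library were compared by two-sided exact permutation tests (scipy 1.17.1).

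The 10 genes and the 13 gene lists (178 genes) were chosen with earlier results of these data known. All 10 were named. From each other list the 2 largest rises and 2 largest falls past the threshold were named if a group averaged 5 FPKM or more, and other genes where a count was 5 or fewer. For markers the rule takes the 2 highest genes. These were Tcf7 and Trbc2 (T cells, 501.4 and 487.2 FPKM in cisplatin, 317.6 and 288.2 in control), Krt19 and Sparc (ID8, 52.9 and 27.8 against 646.1 and 201.9), Ighm and Cd79a (B cells, 3220 and 120.7 against 1433 and 92.6), and Lyz2 and Mpeg1 (myeloid, 89.7 and 34.3 against 30.8 and 60.1). Alternatives varied the pseudocount, the filter, the scaling, the prior, the replicate block and the libraries. Rescaling by reads on genes was chosen after seeing the data.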

Additional observations from a re-analysis of the deposited data

How the results depend on the processing

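Rel, Relb, Nfkb1, Nfkb2, Nfkbia, Nfkbib, Nfkbie and Tnfaip3 kept their direction and call in 17 of 18 alternatives, the exception being centring on T-cell markers. Under it 0 of the 10 genes were called higher (1 at an unadjusted limma p under 0.05; 8 were called with voom on rebuilt reads, without centring) and 6 lower. Log2 fold changes then turned for Nfkb1 (-0.36), Nfkb2 (-0.18), Nfkbia (-0.18), Nfkbib (-0.20), Nfkbie (-0.059) and Tnfaip3 (-0.31), as did the medians of the 10 genes (-0.19), the other pathway genes (-0.40), the target genes (-0.15) and all genes tested (-0.49). Nfkbib and Nfkbie turned without being called lower, and Rela and Nfkbiz were called lower without turning. Other pathway genes were then 3 higher and 32 lower, and target genes 6 higher and 14 lower. The number of the 10 genes called lower, 1 as reported, was 2 with a pseudocount of 1 FPKM and among genes of at least 5 FPKM. It was 0 with quantile normalization, without the prior trend, with voom and with rescaling by reads on genes, where 1, 2, 0 and 0 had an unadjusted p under 0.05, and 0 to 1 when each library was left out in turn (0 without cisplatin library 2, control library 1 or control library 2). Genes past 2-fold numbered 2687, and 1762 with a pseudocount of 1 FPKM and 1145 among genes of at least 5 FPKM, where target genes called higher numbered 10. Quantile normalization, rescaling by reads and centring moved the median log2 fold change of all genes to 0.16, 0.11 and -0.49. Relative to that median, 8 of the 10 genes lay above it and Rela and Nfkbiz below it in all 18 alternatives, with the median of the 10 genes 0.20 to 0.34 higher. For many alternatives this position was fixed in advance. Centring and the other scalings of whole libraries shift all genes nearly alike, and the prior and the block leave the fold changes as they are. All 8 ratios kept their direction, which was largely fixed in advance. For the 7 without overlap between groups, leaving out a library could not turn it. The replicate block leaves a ratio as it is, and rebuilt reads and pseudocounts hardly change it. The replicate numbers did not pair the libraries (correlations of deviations 0.0229, -0.063 and -0.0207 for equal numbers). With the replicate block 8 of the 10 genes were higher, 1 was lower, and 8564 genes passed the adjusted p over all genes, against 8963 without it. With 3 libraries a group, a ratio cannot pass 0.05.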
